A study of Mus musculus with 18 samples.

Results

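The calcium store and relaxation genes of mouse gastrocnemius, the large calf muscle, were followed across Zfp697 genotype and hindlimb loading. They are 10 genes chosen by symbol: Casq1, Casq2, Atp2a1, Atp2a2, Ryr1, Sln, Pln, Pvalb, Jsrp1 and Cacna1s. All 10 were found among the 54532 genes of the count table, and all 10 were among the 17833 genes that passed the filter on low counts. The muscles came from female C57BL/6 mice, whose age is not given in the sources used here. The 6 groups held 3 libraries of polyadenylated RNA each, and were mKO muscle (Zfp697 conditionally deleted in skeletal muscle, by the labels) and flox/flox muscle, called flox here, each in 3 states. The states were control (conventional cages), unloading of the hindlimbs for 10 days, and unloading followed by reloading for 3 days. The labels name neither the Cre line nor the deleted exons, and they do not say whether the 3 libraries of a group came from separate animals, so a p-value here reflects the spread among these libraries, which may be technical.

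Muscle contracts when calcium leaves the sarcoplasmic reticulum and relaxes when calcium is pumped back. The voltage sensor of the surface membrane opens the release channel of the reticulum, calsequestrins hold calcium inside the store, and SERCA pumps return it at a cost in ATP, with small membrane peptides slowing the pump and parvalbumin binding calcium in the cytosol of fast fibres. Fast fibres, which fill most of the mouse gastrocnemius, use mainly Atp2a1, Casq1 and Pvalb, while slow fibres and heart use Atp2a2. Casq2 and Pln belong mainly to heart and to a lesser degree to slow fibres.

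The libraries held 45069595 to 51592566 counts each. Zfp697 itself was at 1.05 to 1.31 CPM (counts scaled to a common library size with TMM factors) in mKO control muscle and 0.984 to 1.598 CPM in flox control muscle, and at 1.47 to 1.95 CPM in mKO reloading muscle against 2.33 to 2.79 CPM in flox reloading muscle. At unloading it was at 1.09 to 2.47 CPM in mKO and 1.58 to 1.74 CPM in flox muscle. Its mKO over flox difference was 0.01 ± 0.26 log2 at control and 0.01 ± 0.25 at unloading, and neither passed. The difference at reloading did not pass either (-0.61 ± 0.25 log2, adjusted p = 0.172). The counts cover the whole gene, and expression in other cells of the muscle was not measured, so these values do not check the genotype labels. The tissue label was borne by the fast fibre markers (Myh4, Myh1, Actn3, Mylpf, Myl1, Tnnt3, Tnni2, Tnnc2), whose summed level was 81500 to 117111 CPM over all 18 libraries, against 484 to 1925 CPM for 7 slow fibre markers. The slow sum varied within groups, most in flox unloading muscle, where it was 484, 848 and 1520 CPM.

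The stretches upstream of 4 of these genes are shown because the transcripts divided them at reloading: Casq2 was higher and Atp2a1, Ryr1 and Pvalb were lower in flox reloading muscle than in flox unloading muscle. They are RefSeq promoter sequences of GRCm38.p6, read 5′ to 3′ on the gene's strand from base -250 to base -51 before the RefSeq start. Capitals mark an E-box, the motif CANNTG that MyoD family factors can bind. RefSeq entries were matched for 7 of the 10 genes, not for Sln, Atp2a2 or Jsrp1.
Casq2, chr3:102086165-102086364, plus strand: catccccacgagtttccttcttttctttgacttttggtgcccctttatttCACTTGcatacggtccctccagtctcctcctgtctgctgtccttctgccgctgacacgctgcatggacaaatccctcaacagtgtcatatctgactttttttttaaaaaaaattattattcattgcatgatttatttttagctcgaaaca
Atp2a1, chr7:126463124-126463323, minus strand: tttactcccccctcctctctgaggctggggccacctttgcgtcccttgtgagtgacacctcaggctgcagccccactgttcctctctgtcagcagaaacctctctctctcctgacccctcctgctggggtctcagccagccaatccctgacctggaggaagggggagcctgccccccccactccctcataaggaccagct
Ryr1, chr7:29125202-29125401, minus strand: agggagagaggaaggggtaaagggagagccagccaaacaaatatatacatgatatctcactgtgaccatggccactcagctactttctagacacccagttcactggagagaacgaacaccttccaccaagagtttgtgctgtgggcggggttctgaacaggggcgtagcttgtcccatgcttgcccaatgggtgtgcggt
Pvalb, chr15:78206451-78206650, minus strand: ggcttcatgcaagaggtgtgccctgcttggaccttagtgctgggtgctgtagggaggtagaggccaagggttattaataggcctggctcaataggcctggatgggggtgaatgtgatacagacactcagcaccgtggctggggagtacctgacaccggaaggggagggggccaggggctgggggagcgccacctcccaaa

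The Casq2 stretch held 1 E-box, at base -200, with 1 match to GGAAA, the core of NFAT sites, and 1 match to the MEF2 motif, searched on both strands. Its bases were 41.0% G or C, against 62.5% for Atp2a1, 52.5% for Ryr1 and 60.5% for Pvalb. The Pvalb stretch printed, at the start the annotation gives, held a MEF2 match and no E-box or GGAAA, while the stretch before a second RefSeq start of Pvalb held 1 E-box and neither other motif. The Atp2a1 and Ryr1 stretches held none of the 3 motifs. Of the matched genes not printed, Casq1, which rose in mKO reloading muscle, held 2 E-boxes, Cacna1s, which passed in no comparison, also held 2, and Pln, likewise passing in none, held 1 E-box and 2 matches to GGAAA. Of 32851 RefSeq promoter stretches of the same length, 59.0% held an E-box, 48.5% held GGAAA and 2.42% held the MEF2 motif. These matches are letters in the sequence, and no binding was measured.

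Per kilobase of exon, the genes differed widely in level. Averaged over the 18 libraries, Pvalb stood at 7838 CPM per kilobase and Atp2a1 at 6923, followed by Casq1 at 1493, Jsrp1 at 231, Ryr1 at 175 and Cacna1s at 150. Atp2a2 was at 51.9 CPM per kilobase and Casq2 at 27.2, while the pump peptides Sln and Pln were at 2.58 and 0.300. Over the 18 libraries the per-kilobase ranges overlapped between the neighbours Pvalb and Atp2a1, among Jsrp1, Ryr1 and Cacna1s, and between Atp2a2 and Casq2, and the other steps in this order had no overlap. Sln was counted with only 56 to 462 reads per library and Pln with 29 to 75, so these genes carry the largest counting error. The highest library exceeded the lowest 7.76-fold for Casq2 and 7.12-fold for Sln, and between 1.45-fold and 2.36-fold for the other genes. The plot of levels by library shows Casq2 high in all 6 reloading libraries.

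**Figure D1:**
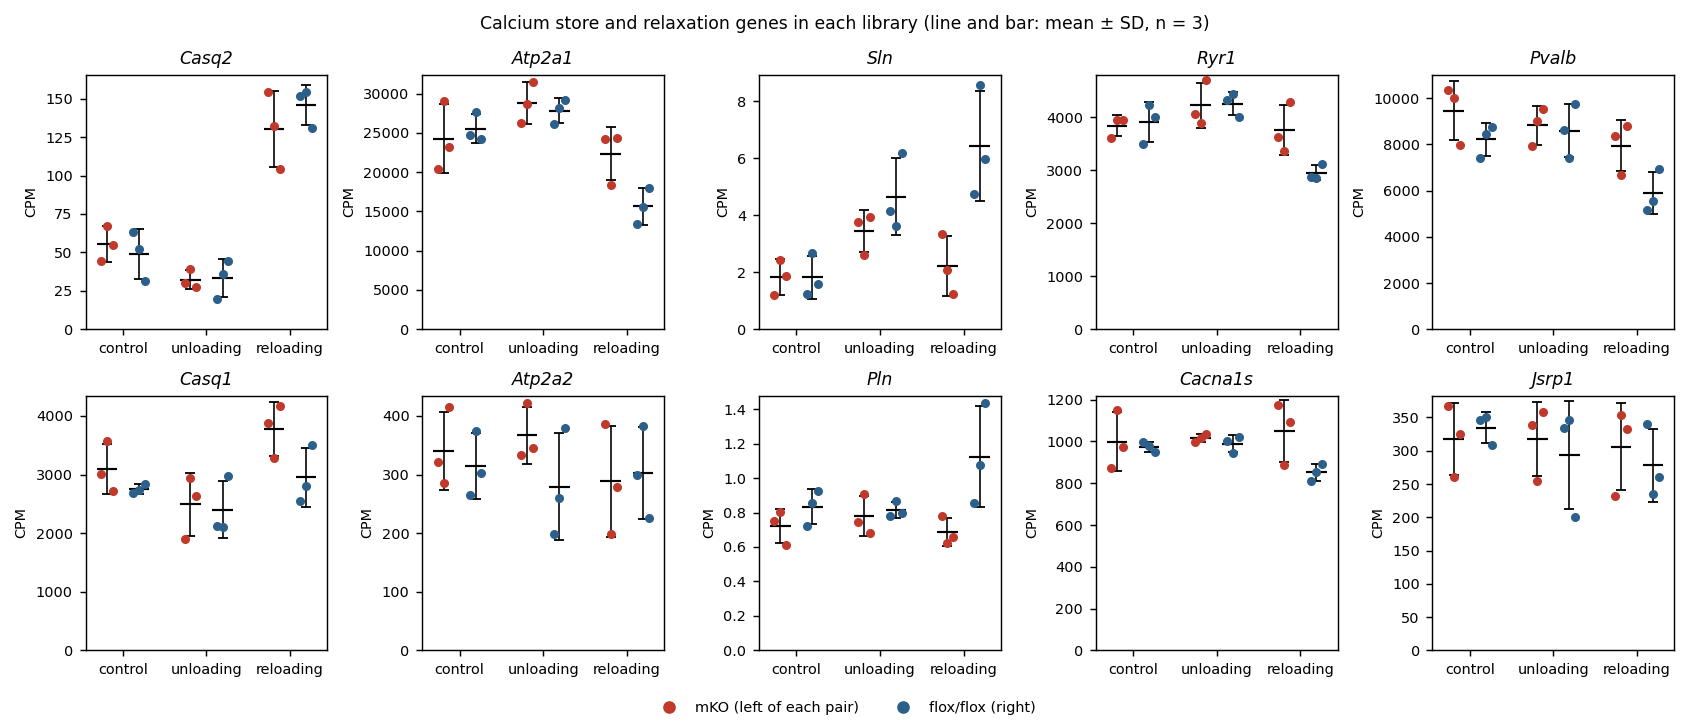
Level of each gene in CPM (linear axes from 0) in every library, for control, unloading and reloading muscle, with mKO left of flox; points are libraries, the line and bar are the mean ± SD (n = 3). Casq2 lies between 104 and 155 CPM in all 6 reloading libraries and between 19.9 and 67.3 CPM in the other 12.

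Across the comparisons, a gene passed at an adjusted p under 0.05 by edgeR's quasi-likelihood test (Benjamini-Hochberg over all tested genes). By this rule 2 of the 10 genes, Casq2 and Casq1, rose and none fell in mKO reloading over mKO unloading, where 9.53% of all tested genes rose and 8.81% fell. In flox reloading over flox unloading 1 rose (Casq2) and 3 fell (Atp2a1, Ryr1, Pvalb), where 17% of all genes rose and 14.9% fell. Against control, 1 rose in mKO reloading muscle (Casq2), where 1.34% of all genes rose and 0.841% fell, and 2 rose (Casq2, Sln) and 3 fell (Atp2a1, Ryr1, Pvalb) in flox reloading muscle, where 12.3% rose and 10.3% fell. Unloading over control moved none of the 10 in mKO muscle, where 4.09% of all genes rose and 3.66% fell, and raised Sln alone in flox muscle, where 2.67% rose and 3.07% fell. Between mKO and flox muscle at reloading, 1 was higher (Atp2a1) and 1 lower (Sln), against 1.06% of all genes higher and 3.85% lower. None passed between genotypes at control or unloading, where edgeR called 0 of all tested genes (0%), DESeq2 called 1 and 0 genes, and 718 and 816 genes had an unadjusted p under 0.05. No interaction, the test of whether a change differs between genotypes, passed for any of the 10, and 0%, 0% and 0.522% of all genes passed in the 3 interactions (unloading over control, reloading over unloading, reloading over control). The median log2 change of the 10 at reloading over unloading was -0.16 in mKO and 0.02 in flox muscle, against 0.0062 and 0.0042 over all tested genes. Ranges without overlap, given below for single genes, were common among all tested genes. Their share was 32.9% in mKO and 44% in flox muscle at reloading over unloading. It was 19.9% and 39.9% at reloading over control, 27.6% and 25.8% at unloading over control, and 22.4% between genotypes at reloading.

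**Figure D2:**
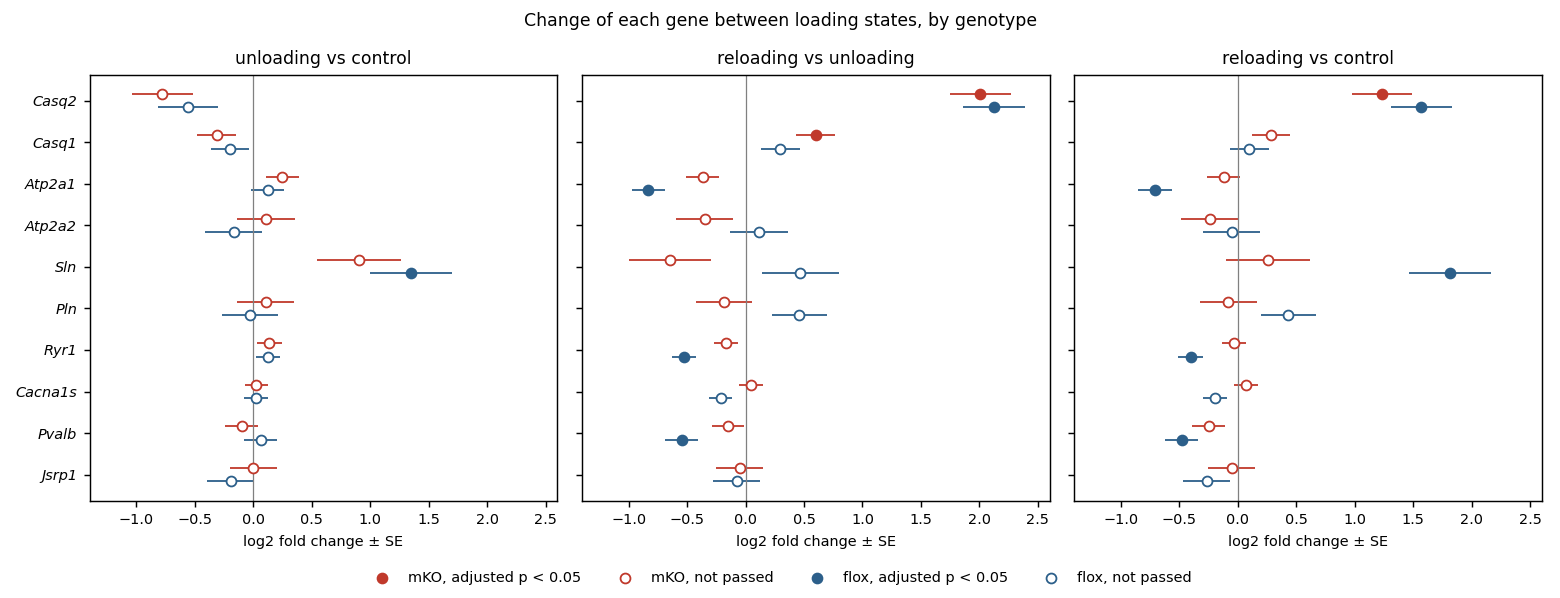
Log2 fold change ± SE of each gene for unloading over control, reloading over unloading and reloading over control, mKO (red) above flox (blue); filled points passed at an adjusted p under 0.05. Casq2 lies at 2.01 and 2.13 in mKO and flox reloading over unloading, and Atp2a1, Ryr1 and Pvalb are filled on the negative side for flox only, a contrast that no interaction test passed.

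Casq2, the calsequestrin of heart and in part of slow fibres, rose 4.03-fold in mKO and 4.37-fold in flox muscle at reloading over unloading. It was the only one of the 10 genes whose change passed in all 4 comparisons that involve reloading within a genotype. Its gene (ENSMUSG00000027861, chr3:102086415-102146514, plus strand of GRCm38, the build of all gene positions here) shares no exon bases with another gene. In mKO muscle it was at 154, 132 and 104 CPM at reloading, against 30.1, 39.4 and 27.5 CPM at unloading and 44.1, 67.3 and 54.9 CPM at control. In flox muscle it was at 152, 155 and 131 CPM at reloading, against 19.9, 35.7 and 44.3 CPM at unloading and 63.6, 52.2 and 31.3 CPM at control. Every reloading library was above every unloading and control library of its genotype, and the unloading libraries overlapped the control libraries in flox muscle and lay below them in mKO muscle.

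By edgeR's quasi-likelihood test, the log2 fold change of Casq2 from reloading over unloading was 2.01 ± 0.26 (SE) in mKO muscle (adjusted p = 7.89e-05) and 2.13 ± 0.27 in flox muscle (adjusted p = 1.17e-05). Over control it was 1.23 ± 0.26 in mKO muscle (adjusted p = 0.0184) and 1.57 ± 0.26 in flox muscle (adjusted p = 0.000338), a comparison that shares its reloading libraries with the one over unloading. The change over unloading differed between the genotypes by -0.12 ± 0.36 (adjusted p = 0.944), and the mKO over flox difference at reloading was -0.16 ± 0.25 (adjusted p = 0.791). The mKO call over control was lost when mKO control replicate 1 or 3, or mKO reloading replicate 1 or 2, was left out (1.09 to 1.23, adjusted p 0.0524 to 0.1001). The log2 fold change of Casq2 at unloading over control was -0.78 ± 0.26 in mKO muscle (adjusted p = 0.0739) and -0.56 ± 0.26 in flox muscle (adjusted p = 0.231), and neither passed.

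Casq1 (ENSMUSG00000007122, chr1:172209894-172219868, minus strand), the main calsequestrin of fast fibres, rose in mKO reloading muscle, where it was at 3887, 3279 and 4164 CPM, against 1903, 2946 and 2628 CPM in mKO unloading muscle. The ranges did not overlap, and the log2 fold change was 0.60 ± 0.17 (adjusted p = 0.0170). The call was lost without mKO unloading replicate 1 (0.44, adjusted p = 0.0978) or mKO reloading replicate 3 (0.52, adjusted p = 0.0639), and when only the compared groups were modelled (adjusted p = 0.0510). In flox muscle Casq1 was at 2544, 2799 and 3508 CPM at reloading and 2122, 2112 and 2970 CPM at unloading, and this difference did not pass (0.30 ± 0.17, adjusted p = 0.187). It passed with total counts as the scale (0.41, adjusted p = 0.0389) and without flox unloading replicate 3 (0.48, adjusted p = 0.0423), and the test of whether the change differed between genotypes did not pass (0.30 ± 0.23, adjusted p = 0.687).

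The balance of the 2 calsequestrins was measured within each library, where it does not depend on scaling between libraries. Casq2 made up 2.43% ± 0.59 of calsequestrin transcripts per exon length in mKO reloading muscle, against 0.934% ± 0.19 at unloading and 1.26% ± 0.20 at control (SD, n = 3 each). In flox muscle the share was 3.49% ± 0.79 at reloading, against 0.969% ± 0.27 at unloading and 1.26% ± 0.45 at control. Casq1 thus remained the main calsequestrin in all 18 libraries. Averaged over the genotypes, the log2 ratio of Casq2 to Casq1 was higher at reloading by 1.65 than at unloading and by 1.25 than at control. Both had p = 0.005 by the exact two-sided permutation test within genotype over 400 relabellings, the smallest p it can give, and an adjusted p = 0.015 over 6 ratio comparisons. Unloading against control gave -0.40 (exact permutation test, adjusted p = 0.195).

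**Figure D3:**
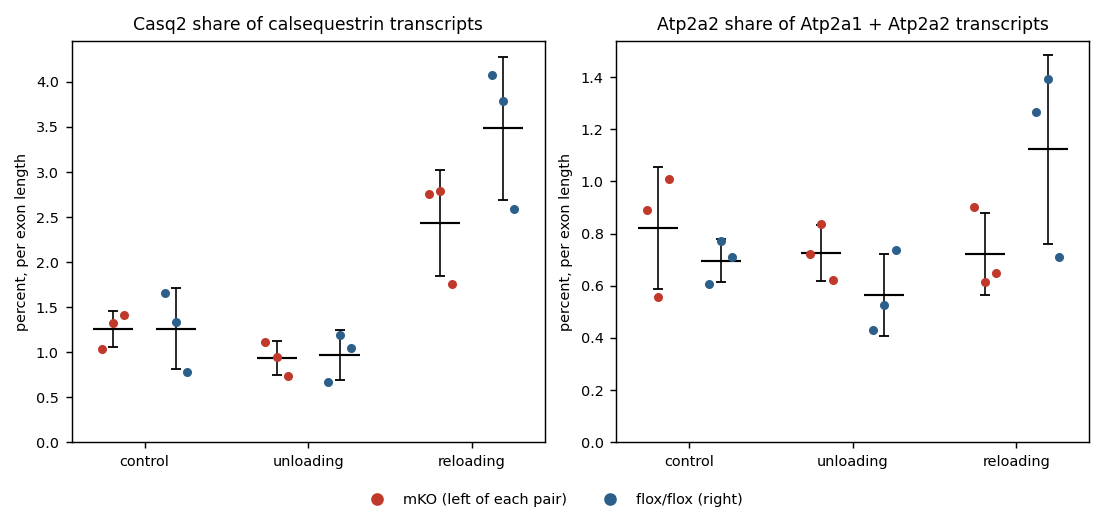
Share of Casq2 among calsequestrin transcripts and of Atp2a2 among Atp2a1 plus Atp2a2 transcripts, in percent of counts per exon length, by library (points) with mean ± SD (n = 3) and mKO left of flox. The 6 reloading libraries have a Casq2 share of 1.76% to 4.08%, while the other 12 run from 0.665% to 1.66%; the Atp2a2 shares overlap between states in both genotypes.

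Atp2a1, the fast fibre SERCA pump, fell in flox reloading muscle, where it was at 13373, 15524 and 18028 CPM, against 26125, 28147 and 29221 CPM in flox unloading muscle and 24771, 27639 and 24208 CPM in flox control muscle. All 3 reloading libraries were below all 6 others of the genotype. The log2 fold change was -0.83 ± 0.14 over unloading (adjusted p = 0.000242) and -0.71 ± 0.14 over control (adjusted p = 0.00152). In mKO muscle Atp2a1 was at 24266, 18415 and 24334 CPM at reloading, against 26244, 28680 and 31512 CPM at unloading and 20451, 29109 and 23227 CPM at control. The mKO reloading libraries were below the unloading libraries and overlapped the control libraries, and the change over unloading did not pass (-0.37 ± 0.14, adjusted p = 0.0805), although it passed with total counts as the scale (-0.36, adjusted p = 0.0429) and by DESeq2 (-0.37, adjusted p = 0.0424). Of the exon bases of Atp2a1 (ENSMUSG00000030730, chr7:126445858-126463108, minus strand), 21.9% are shared with Rabep2 on the other strand, and no strand setting is given for the counting.

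At reloading Atp2a1 was higher in mKO than in flox muscle by 0.51 ± 0.14 (adjusted p = 0.0437), with no overlap between the libraries, as for 22.4% of all tested genes. This call lay near the threshold. It was lost in 9 of 18 fits that left out 1 library, namely each of the 3 flox control libraries, mKO control replicate 3, flox unloading replicate 2, flox reloading replicates 1 and 2 and mKO reloading replicates 1 and 3 (0.42 to 0.52, adjusted p 0.0514 to 0.197), with total counts (0.37, adjusted p = 0.0558), and when only the compared groups were modelled (0.52, adjusted p = 0.148). The test of whether the change over control differed between genotypes gave 0.59 ± 0.20 (adjusted p = 0.192), and over unloading 0.46 ± 0.20 (adjusted p = 0.422).

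Atp2a2 (ENSMUSG00000029467, chr5:122453513-122502225, minus strand), the SERCA pump of slow fibres and heart, passed in no comparison. It was at 199 to 387 CPM in mKO reloading muscle, 334 to 423 CPM in mKO unloading muscle and 286 to 415 CPM in mKO control muscle, and at 225 to 383, 198 to 379 and 265 to 375 CPM in flox muscle at reloading, unloading and control. The groups overlapped, and the spread lay within groups. Atp2a2 made up 0.723% of Atp2a1 plus Atp2a2 transcripts per exon length in mKO reloading muscle, 0.727% at unloading and 0.820% at control. In flox muscle the share was 1.12% at reloading, 0.565% at unloading and 0.696% at control. The ratio of Atp2a2 to Atp2a1 at reloading over unloading averaged 0.48 log2, -0.02 in mKO and 0.97 in flox muscle, and did not pass (exact permutation test, adjusted p = 0.195).

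The genes whose log2 CPM followed Atp2a2 most closely over the 18 libraries were Myh7, Tnnt1 and Tpm3, the slow myosin heavy chain, troponin T and tropomyosin, with Pearson correlations of 0.90, 0.88 and 0.86. This is a description over libraries that share their groups and their TMM scaling. In the library with the lowest slow sum, flox unloading replicate 1, both Atp2a2 (198 CPM) and Casq2 (19.9 CPM) were at their lowest. With the log2 slow sum over the 18 libraries, the correlation was 0.78 for Atp2a2 and 0.51 for Casq2, and Casq2 also moved with the smooth muscle sum (0.75) and the macrophage sum (0.70), given below with their levels; the part of these cells in its rise was not tested. At reloading Casq2 was 154, 132 and 104 CPM in mKO replicates 1 to 3, where the slow sum was 1925, 894 and 1532 CPM. In flox replicates 1 to 3 Casq2 was 152, 155 and 131 CPM at slow sums of 1409, 1655 and 1041 CPM. Slow sums at control were 1196 to 1488 CPM in mKO and 1063 to 1426 CPM in flox muscle. The part of slow fibres in the Casq2 rise was not tested. Of the 7 slow fibre markers, 1 rose in mKO and 1 in flox muscle at reloading over unloading, against 9.53% and 17% of all tested genes, with a median log2 change of 0.02 in mKO and 0.53 in flox muscle. Without flox unloading replicate 1 the Casq2 change in flox muscle was 1.86 (adjusted p = 7.18e-05). The genes most like Casq2 were Hspb6, Cct3 and Nme1 (0.98, 0.97 and 0.96), and those most like Atp2a1 were Pygm, Aldoa and Atg9a (0.98, 0.96 and 0.96).

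**Figure D4:**
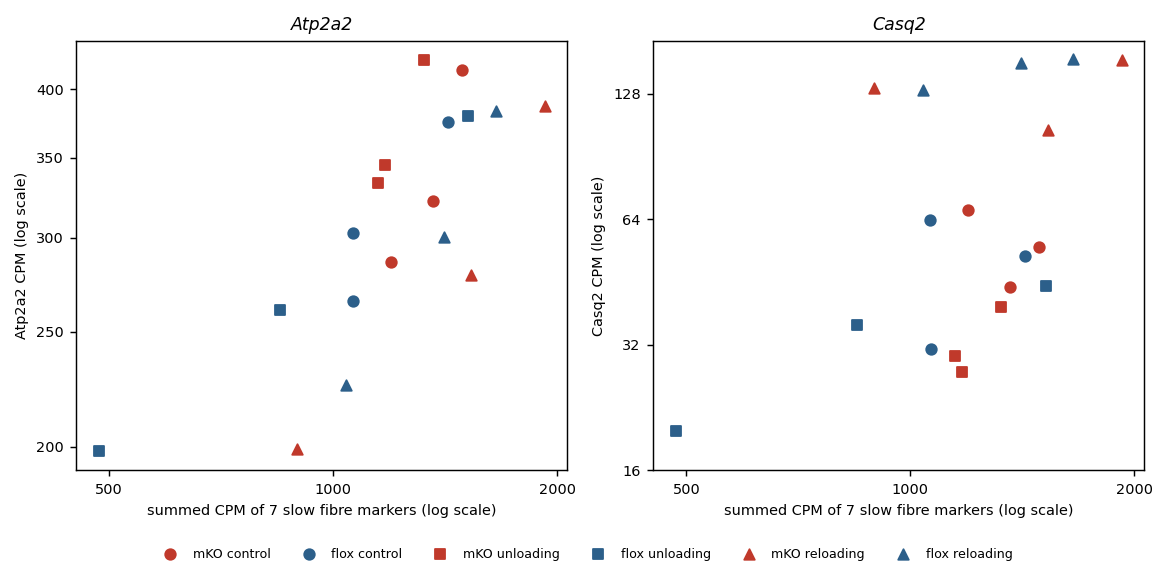
Atp2a2 (left) and Casq2 (right) CPM against the summed CPM of 7 slow fibre markers in each of the 18 libraries, log axes; colour is genotype and shape is loading state. Atp2a2 is lowest, at 198 CPM, in the library with the lowest slow sum, 484 CPM, whereas the 6 reloading libraries form a band of high Casq2 at slow sums of 894 to 1925 CPM.

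Sln (ENSMUSG00000042045, chr9:53850164-53854560, plus strand) encodes sarcolipin, a peptide that binds SERCA and lets it spend ATP without moving as much calcium. It was higher in flox reloading muscle, at 4.75, 8.56 and 5.98 CPM, than in flox control muscle, at 1.24, 2.67 and 1.58 CPM, and already at unloading it was at 4.16, 3.62 and 6.17 CPM. Both groups lay above the control libraries. The log2 fold change was 1.82 ± 0.35 for reloading over control (adjusted p = 0.00119) and 1.35 ± 0.35 for unloading over control (adjusted p = 0.0313), and these comparisons share the flox control libraries. The unloading call was lost without flox control replicate 1 or 3, or without flox unloading replicate 1 or 3 (1.09 to 1.42, adjusted p 0.0696 to 0.138).

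In mKO muscle Sln was at 3.34, 2.07 and 1.23 CPM at reloading, against 3.78, 2.59 and 3.93 CPM at unloading and 1.202, 2.43 and 1.86 CPM at control. None of its changes passed in mKO muscle, with 0.90 ± 0.36 for unloading over control (adjusted p = 0.128). At reloading Sln was lower in mKO than in flox muscle, with a log2 fold change of -1.55 ± 0.35 (adjusted p = 0.0147) and no overlap between the libraries. It failed to pass with flox reloading replicate 2 removed (-1.28, adjusted p = 0.105) or with mKO reloading replicate 3 removed (-1.26, adjusted p = 0.104), and narrowly when only the compared groups were modelled (-1.54, adjusted p = 0.0504). The genotype difference in the change over control was -1.56 ± 0.50 and did not pass (adjusted p = 0.167).

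Pln (ENSMUSG00000038583, chr10:53337667-53345987, plus strand) encodes phospholamban, which holds SERCA back until it is phosphorylated. It was at 0.777, 0.625 and 0.656 CPM in mKO reloading muscle and 0.857, 1.08 and 1.44 CPM in flox reloading muscle, without overlap, and the difference did not pass (-0.71 ± 0.24, adjusted p = 0.0901). It passed with total counts as the scale (-0.85, adjusted p = 0.0322). Of its exon bases 64.7% are shared with Cep85l and Gm47644 on the other strand, so reads of these genes may be mixed.

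Ryr1 (ENSMUSG00000030592, chr7:29003344-29125179, minus strand), the calcium release channel of the reticulum, fell in flox reloading muscle. It was at 2884, 2860 and 3120 CPM there, against 4328, 4448 and 4013 CPM in flox unloading muscle and 3496, 4231 and 4001 CPM in flox control muscle, and the reloading libraries lay below the 6 others of the genotype. The log2 fold change was -0.53 ± 0.10 over unloading (adjusted p = 0.000791) and -0.40 ± 0.10 over control (adjusted p = 0.00850). In mKO muscle Ryr1 was at 3641, 3358 and 4292 CPM at reloading and 4071, 3902 and 4716 CPM at unloading, overlapping ranges with a change that did not pass (-0.17 ± 0.10, adjusted p = 0.284). At reloading it was 0.35 ± 0.10 higher in mKO than in flox muscle, which missed the threshold (adjusted p = 0.0590). This difference passed in 3 of 7 other settings, among them DESeq2 (0.35, adjusted p = 0.0139) and the replicate block (0.35, adjusted p = 0.0446). It also passed in 1 of 18 fits that left out 1 library, the one without mKO reloading replicate 2 (0.43, adjusted p = 0.0177). Over the 7 settings it ran from 0.21 to 0.35.

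Cacna1s (ENSMUSG00000026407, chr1:136052750-136119822, plus strand), the pore subunit of the voltage sensor that opens Ryr1, was at 885 to 1175 CPM in mKO reloading muscle and 812 to 894 CPM in flox reloading muscle. In flox muscle the reloading libraries lay below the unloading libraries (946 to 1022 CPM), and the change of -0.21 ± 0.10 did not pass (adjusted p = 0.122). Jsrp1 (ENSMUSG00000020216, chr10:80808496-80813498, minus strand) encodes JP-45, a reticulum protein of the triad junction that binds the voltage sensor and calsequestrin. It was at 232 to 353 CPM in mKO reloading muscle and 235 to 340 CPM in flox reloading muscle, and the ranges of all 6 groups overlapped. Cacna1s shares 1309 of its 6550 exon bases with Gm37759 on the other strand. With all 18 libraries fitted, neither Cacna1s nor Jsrp1 passed in any comparison. The mKO over flox difference of Cacna1s at reloading, 0.30 ± 0.10 (adjusted p = 0.1002), passed without mKO reloading replicate 2 (0.41, adjusted p = 0.0127).

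Pvalb (ENSMUSG00000005716, chr15:78191114-78206400, minus strand), the cytosolic calcium buffer of fast fibres, fell in flox reloading muscle, where it was at 5184, 5568 and 6930 CPM, against 8623, 7427 and 9734 CPM at unloading and 7432, 8472 and 8772 CPM at control. The reloading libraries lay below the 6 others. The log2 fold change was -0.54 ± 0.14 over unloading (adjusted p = 0.00628) and -0.48 ± 0.14 over control (adjusted p = 0.0188). The second call was lost without flox control replicate 2 or 3 or flox reloading replicate 1 or 2 (-0.46 to -0.40, adjusted p 0.0588 to 0.0832) and with total counts (-0.34, adjusted p = 0.0501). In mKO muscle Pvalb was at 8371, 6684 and 8810 CPM at reloading and 7916, 9015 and 9555 CPM at unloading, overlapping ranges with a difference that did not pass (-0.15 ± 0.14, adjusted p = 0.505). The mKO over flox difference at reloading was 0.43 ± 0.14 and did not pass (adjusted p = 0.0840), although it passed by DESeq2 (0.43, adjusted p = 0.0319).

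Macrophage markers were higher in the libraries in which Atp2a1, Ryr1 and Pvalb were lower. Correlations with the log2 macrophage sum over the 18 libraries were -0.82, -0.86 and -0.82. With the smooth muscle sum they were weaker, at -0.47, -0.46 and -0.43, and with the regenerating fibre sum they were -0.31, -0.28 and -0.32. Sln and Pln had correlations of 0.57 and 0.54 with the macrophage sum. That sum was highest in the 3 flox reloading libraries, where Atp2a1, Ryr1 and Pvalb had fallen. The correlations therefore partly restate 1 group difference. In flox reloading replicates 1 to 3 the macrophage sum was 199, 265 and 178 CPM, while Atp2a1 and Pvalb were lowest in replicate 1. All 5 macrophage markers (Cd68, Adgre1, Csf1r, Lyz2, Itgam) rose in flox reloading over flox unloading muscle, where 17% of all tested genes rose. Their summed level was 178 to 265 CPM at reloading, against 79.9 to 103 CPM at unloading. In mKO reloading muscle the sum was 80.1 to 118 CPM. Of the 5 markers, 1 was higher than at mKO unloading, where 9.53% of all tested genes rose. At reloading 4 of the 5 were lower in mKO than in flox muscle, where 3.85% of all tested genes were lower. The fast fibre sum was 94558 to 117111 CPM in mKO reloading muscle and 81500 to 94442 CPM in flox reloading muscle, against 95621 to 104518 CPM in flox unloading muscle. The sum of 5 markers of regenerating fibres was 96.7 to 126 CPM in mKO and 109 to 133 CPM in flox reloading muscle. At unloading it was 54.1 to 85.8 CPM in mKO and 63.5 to 164 CPM in flox muscle. At control it was 57.3 to 209 CPM in mKO and 59.0 to 76.6 CPM in flox muscle. Of these 5, 3 were higher at reloading over unloading in each genotype, against 9.53% of all tested genes in mKO and 17% in flox muscle. At reloading 2 of the 5, Mymk and Myog, were lower in mKO than in flox muscle, where 3.85% of all tested genes were lower. The median log2 difference of the 5 was -1.10, although the sums overlapped. The sum of 6 smooth muscle markers, cells that also use Pln and Atp2a2, was 195 to 228 CPM in mKO and 183 to 226 CPM in flox reloading muscle, against 139 to 177 CPM in mKO and 156 to 172 CPM in flox unloading muscle. In whole muscle, fewer cells of a type and less RNA per cell cannot be told apart.

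Scaled to the fast fibre sum, a scaling chosen after the data were seen, the flox reloading over unloading changes were -0.64 for Atp2a1 (adjusted p = 3.00e-05), -0.34 for Ryr1 (adjusted p = 0.00687) and -0.35 for Pvalb (adjusted p = 0.0123), and Casq2 rose by 2.34 (adjusted p = 2.52e-06). Against control the same scaling kept Atp2a1 (-0.47, adjusted p = 0.000844) and ended the calls of Ryr1 (-0.16, adjusted p = 0.196) and Pvalb (-0.24, adjusted p = 0.0802). Between mKO and flox at reloading it ended the Atp2a1 call (0.22, adjusted p = 0.0916), kept Sln (-1.83, adjusted p = 0.00137) and added Pln (-0.99, adjusted p = 0.0103). In that comparison Ryr1 was at 0.05 (adjusted p = 0.710), Pvalb at 0.14 (adjusted p = 0.326) and Cacna1s at 0.0004 (adjusted p = 0.998) on this scale. In mKO muscle it added Atp2a1 at reloading over unloading (-0.40, adjusted p = 0.00684), and in flox muscle Casq1 (0.49, adjusted p = 0.00474). Of the 8 fast fibre markers, 3 (Actn3, Tnnt3 and Tnni2) fell in flox reloading over unloading, where 14.9% of all tested genes fell. Actn3 averaged 11227 CPM in flox unloading and 5060 CPM in flox reloading muscle, against 7945 CPM in flox control muscle. In mKO muscle it averaged 12220 CPM at unloading, 6702 CPM at reloading and 8556 CPM at control. Because the fast fibre sum itself can change with loading, this scaling cannot separate cell content from change within fibres. The part of other cell types in the unscaled changes was not tested.

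The choice of scaling bears on these counts, since total counts in place of TMM shifted the median gene by 0.11 log2 in flox reloading over unloading, by 0.15 in flox reloading over control and by -0.13 in mKO over flox at reloading. With total counts 71.8%, 80.5% and 2.42% of the called genes were higher in these 3 comparisons, against 53.3%, 54.3% and 21.6% with TMM. Scaled to the fast fibre sum the shifts were 0.20, 0.24 and -0.29, and 82.7%, 89.9% and 0.264% of the called genes were higher. Of the calls among the 10 genes, total counts ended those of Pvalb in flox reloading over control and of Atp2a1 between genotypes at reloading, and no called change of the 10 turned its direction under any scaling tried.

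A wider set of 50 calcium handling genes was followed, of which 49 were tested and Strit1 was not matched. At reloading over unloading 11 rose and 7 fell in mKO muscle, and 12 rose and 12 fell in flox muscle; 16 passed in the same direction in both, 88.9% of the mKO calls and 66.7% of the flox calls. Over all tested genes 9.53% rose and 8.81% fell in mKO muscle, 17% rose and 14.9% fell in flox muscle, and the calls shared in the same direction were 76.9% of the mKO calls and 44.1% of the flox calls. No list was tested as a whole. Among the 15 triad and reticulum genes, 4 rose and 2 fell in mKO muscle (9.53% and 8.81% of all genes) and 3 rose and 4 fell in flox muscle (17% and 14.9%). Sypl2, mitsugumin 29 of the triad membrane, rose by 0.98 ± 0.17 in mKO (adjusted p = 0.000779) and 1.01 ± 0.17 in flox muscle (adjusted p = 0.000217). Trdn, triadin, which anchors calsequestrin to the release channel, fell by 0.37 ± 0.12 in mKO (adjusted p = 0.0361) and by 0.56 ± 0.12 in flox muscle (adjusted p = 0.00141). Cacna2d1, a subunit of the voltage sensor, fell by 0.45 ± 0.12 in mKO and by 0.60 ± 0.12 in flox muscle. Tmem38b, a potassium channel of the reticulum, rose at unloading over control by 0.70 ± 0.08 in mKO (adjusted p = 0.000162) and 0.52 ± 0.08 in flox muscle (adjusted p = 0.00129).

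Among 11 tested pump peptides, channels, pumps and exchangers, none rose and 3 fell in mKO muscle at reloading over unloading (9.53% and 8.81% of all genes), and 1 rose and 3 fell in flox muscle (17% and 14.9%). Mrln, which encodes myoregulin, a peptide that slows SERCA in fast muscle, fell by 0.65 ± 0.17 in mKO (adjusted p = 0.0129) and by 0.84 ± 0.17 in flox muscle (adjusted p = 0.00104). Slc8a3, a sodium-calcium exchanger of the surface membrane, fell by 1.10 ± 0.18 in mKO (adjusted p = 0.000512) and by 1.42 ± 0.18 in flox muscle (adjusted p = 1.63e-05).

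Of 9 genes of store-operated entry and mitochondrial uptake, 3 rose and none fell in mKO muscle (9.53% and 8.81% of all genes) and 4 rose and 1 fell in flox muscle (17% and 14.9%). Mcu, the pore of the mitochondrial uniporter, rose by 0.48 ± 0.11 in mKO and 0.79 ± 0.11 in flox muscle, and its gatekeeper Micu2 rose by 0.47 ± 0.07 in mKO and 0.66 ± 0.07 in flox muscle. Mcub, an inhibitory paralog of Mcu, rose in flox muscle by 1.19 ± 0.25 (adjusted p = 0.0014) and was lower in mKO than in flox reloading muscle (-0.99 ± 0.25, adjusted p = 0.0262). Of 14 sensors, kinases, calcineurin subunits and reticulum buffers, 4 rose and 2 fell in mKO muscle (9.53% and 8.81% of all genes) and 4 rose and 4 fell in flox muscle (17% and 14.9%). Calu, the reticulum calcium binder calumenin, rose by 0.38 ± 0.09 in mKO and 0.69 ± 0.09 in flox muscle, and Ppp3cb, a catalytic subunit of calcineurin, fell by 0.29 ± 0.08 in mKO and by 0.51 ± 0.08 in flox muscle.

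Between genotypes at reloading, 3 of the 49 genes were higher and 1 was lower in mKO muscle, where 1.06% of all tested genes were higher and 3.85% lower. The 3 were Hrc, a calcium binder of the reticulum (0.39 ± 0.10, adjusted p = 0.0343), Cacnb1, the voltage sensor's beta subunit (0.31 ± 0.07, adjusted p = 0.0158), and Tmem38a, a potassium channel of the reticulum (0.30 ± 0.07, adjusted p = 0.0230), and the lower one was Mcub. None of the 49 passed an interaction test.

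**Figure D5:**
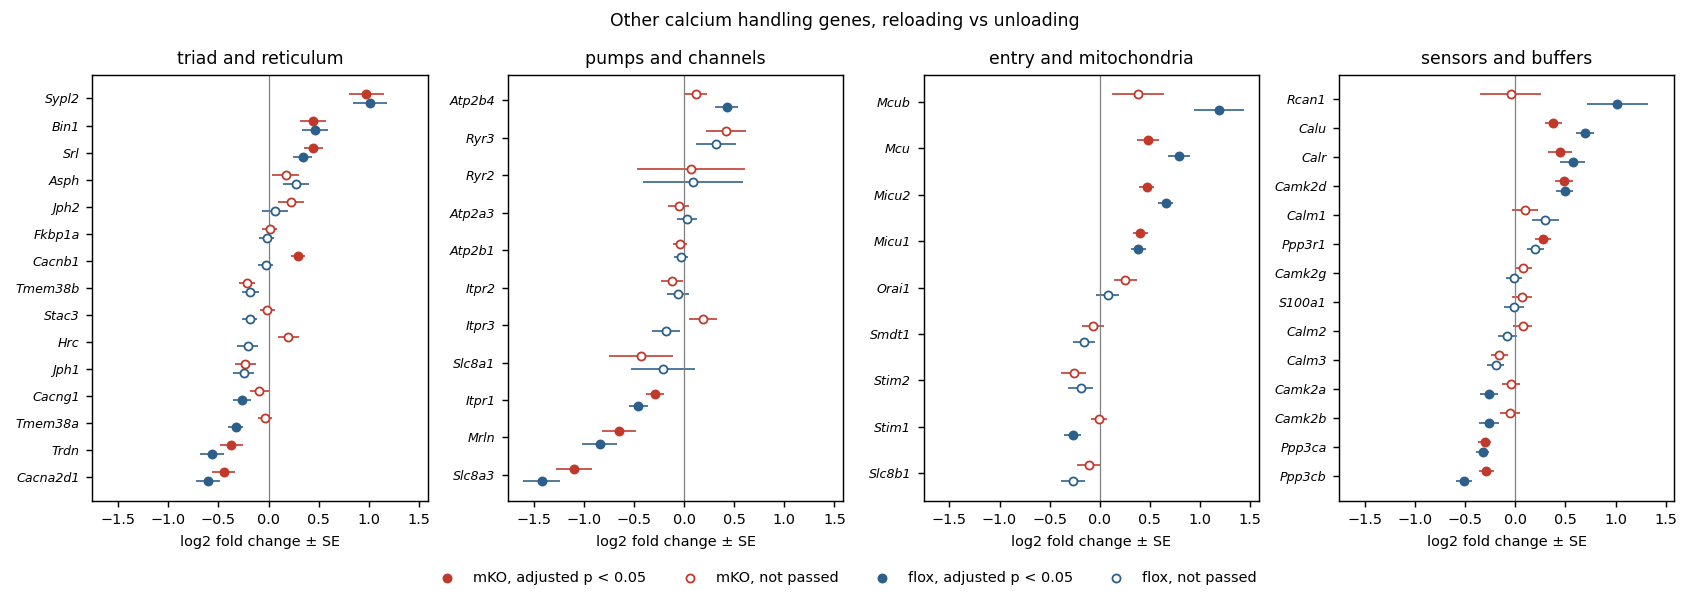
Log2 fold change ± SE at reloading over unloading of 49 calcium handling genes outside the main 10, in 4 lists, mKO (red) above flox (blue); filled points passed at an adjusted p under 0.05. Sypl2 at 0.98 and 1.01 and Slc8a3 at -1.10 and -1.42, mKO and flox, mark the ends of their lists in both genotypes.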

How the data were processed

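Polyadenylated RNA was made into stranded libraries (TruSeq Stranded mRNA), per the labels. The submitters' processing notes name STAR 2.7.3a, featureCounts 2.0.3 and build GRCm38.p6; per the file headers the deposited counts, raw whole reads per gene with no scaling, came from featureCounts 1.6.4 with annotation release 94. No setting for strand, pairing or multiple mapping is written there. All 18 libraries were used. Counts were filtered by edgeR's default, scaled by TMM and analysed by edgeR 4.0.16 (R 4.3.3) with 1 model of 6 group means with 12 residual degrees of freedom, in 12 contrasts. Each SE is the fold change divided by the square root of F. Log2 CPM used a prior count of 2. Ratios within libraries were tested by exact permutation. No 2 libraries of a group agreed within sampling noise. The members and the lists were chosen with earlier results of these data known. Named outside the members were up to 4 called genes per list and comparison, and the 3 genes most correlated with a member. Alternatives were RLE factors, total counts, no filter, a filter of 1 CPM in 3 libraries, a replicate block, only the compared groups, DESeq2 1.42.0, and each library left out. The edgeR test was tested on simulated data. The authors' 4 DESeq2 tables were not used.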

Additional observations from a re-analysis of the deposited data

How the results depend on the processing

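No called change of the 10 genes turned its direction under the alternatives run. Values that passed under neither setting were not judged by sign. The counts below lack the share of all genes called under the same setting. They therefore cannot say whether added or lost calls are particular to the 10 genes. With no low-count filter edgeR's adjusted p for Casq2 in mKO unloading over control went from 0.0739 to 1.13e-12. With no low-count filter more of the 10 genes passed: 3 in mKO unloading over control, 5 in mKO reloading over unloading, 2 in flox unloading over control, 1 in mKO over flox at unloading, 5 in mKO over flox at reloading, 5 in flox reloading over unloading (Casq1 added), 6 in flox reloading over control (Jsrp1 added), and 1 and 2 in the interactions of reloading over unloading and over control; the cause was not tested. With only the compared groups modelled, fewer libraries gave the spread, and 1, 1 and 0 passed in mKO unloading over control, mKO reloading over unloading and mKO over flox at reloading. DESeq2 called 4 in mKO over flox at reloading, and the scaling to fast fibre markers, added after the data were seen, called 3 in flox reloading over control; the cause was not tested. Leaving out 1 library at a time gave 0 to 1 in mKO unloading over control, 1 to 2 in mKO reloading over unloading, 0 to 1 in mKO reloading over control, 0 to 1 in flox unloading over control, 4 to 5 in both flox reloading comparisons and 0 to 5 in mKO over flox at reloading. The log2 ratio of Casq2 to Casq1 ranged from 1.52 to 1.76 at reloading over unloading, from 1.09 to 1.36 at reloading over control and from -0.56 to -0.27 at unloading over control, the last passing without flox control replicate 3 (-0.56, exact permutation test, adjusted p = 0.04).

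Whether replicate numbers pair the libraries was not settled. Of 27 correlations of same-numbered deviations, 12 were over 0.1 (from -0.20 to 0.28), and differently numbered libraries were not compared. With the replicate block the Casq2 to Casq1 ratio stood at 1.65 and 1.25 with p = 0.03125 for both, the smallest p that the exact permutation test can give with 64 sign changes, so the adjusted p of 0.09375 says nothing about whether the result holds; of the members' calls the block added Ryr1 in mKO over flox at reloading. Depth limits Sln, at 56 to 462 reads, and Pln, at 29 to 75 reads, most.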
